A study of Bos taurus with 11 samples.

Results

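*miR-144*, *miR-451* and *miR-486*, miRNAs best known from red blood cells, were followed in small RNA libraries of bovine mammary gland. They are 3 of the 796 mature miRNAs in the count table (listed as bta-miR-144, bta-miR-451 and bta-miR-486). They were chosen by name for their known place in red cells, though with earlier results of these data known. The libraries came from mammary biopsies of 5 Holstein and 6 Montbéliarde cows, both dairy breeds, in mid-lactation and on a common diet, with 1 library per cow. No cow received a treatment, so the breed was the factor compared. Each biopsy was cut from the rear of the udder, rinsed in saline and frozen whole, and thus held milk-secreting epithelium together with stroma, vessels and whatever blood the rinse left. Libraries are named here by breed and tag (CNLX1 to CNLX9 for Holstein, CNLX13 to CNLX23 for Montbéliarde). All 6 miRNAs of an epithelial marker list (the *miR-200* family with *miR-141* and *miR-429*, and *miR-205*) were detected in every library, with a summed level of 17715 to 47890 CPM.

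*miR-144* and *miR-451* are made from a shared primary transcript in developing red cells, where the transcription factor GATA1 drives it. *miR-451* is one of the few miRNAs that do not need Dicer, since Argonaute 2 cuts its short hairpin itself. Mature red cells lose their nucleus yet keep miRNAs, and *miR-451* is among the most abundant of them. *miR-486* is also abundant in red cells, but its hairpin lies in *ANK1*, the erythroid ankyrin gene, which has a muscle form too, and *miR-486* is a known miRNA of heart and skeletal muscle. For these reasons *miR-451* is a usual measure of haemolysis in plasma, and the 3 miRNAs together are often read as a trace of blood in tissue RNA. In the RefSeq bovine annotation used here (assembly ARS-UCD2.0), *MIR451* and *MIR144* are neighbours between *ERAL1* and *FLOT2*, and *MIR486* lies inside *ANK1*.

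The number of reads counted to miRNAs ranged from 7431936 to 16808976 (median 10786816) in the Holstein libraries and from 6087865 to 11395785 (median 9107961) in the Montbéliarde libraries. Levels are given as CPM, read counts brought to a common library size with TMM factors, which correct for a few very abundant miRNAs. The 3 miRNAs summed to between 0.267% and 0.390% of the counted reads in Holstein and between 0.242% and 0.526% in Montbéliarde. *miR-486* made up 85.7% to 97.2% of that sum, so the sum mostly followed *miR-486*. Levels of different miRNAs are compared here as reads, and the ligation of adaptors is known to favour some sequences over others. A pair of Montbéliarde libraries, CNLX17 and CNLX23, stood apart from the other 9 in *miR-144* and *miR-451*. The spreads of the 3 miRNAs and the correlations between them are given with and without this pair. Relations with other miRNAs and with lists are given over all libraries, and only some of them also without the pair. Breed differences are given with each library left out in turn, since leaving out both would select cows by their level. In tissue of mixed cells, fewer red cells and less of a miRNA per red cell cannot be told apart.

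*miR-451* separated the Montbéliarde cows into libraries above and below every Holstein library. In Holstein its level was 240 CPM in CNLX1, 170 in CNLX3, 221 in CNLX5, 209 in CNLX7 and 161 in CNLX9 (200 ± 33.9 CPM, SD, n = 5). In Montbéliarde its lowest level was 103 CPM (CNLX21), its median 125 CPM and its highest 539 CPM (CNLX23), with a mean of 257 ± 218 CPM (SD, n = 6). CNLX17 reached 537 CPM, next to CNLX23, and the other 4 libraries lay between 103 and 127 CPM. Thus 2 Montbéliarde libraries were above the Holstein range, 4 were below it and 0 were within it. The lower of the pair was 2.23-fold above the highest of the other 9 libraries. Over all cows the highest level was 5.23-fold the lowest, and *miR-451* stood between place 65 and place 119 among the miRNAs of a library ordered by count.

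Counting error was small for *miR-451*, and its share of the counted reads carries the same picture. Raw counts also follow depth: Holstein CNLX5, the deepest library (16808976 counted reads), held 3534, near the count of CNLX17. The *miR-451* count was 6767 in CNLX23 (95% Poisson interval 6607 to 6930) and 3756 in CNLX17. It was smallest, 728 (676 to 783), in CNLX13, which was also the shallowest library (6087865 counted reads). As a share of the counted reads, *miR-451* took 0.0642% in CNLX23 (95% Wilson interval 0.0627% to 0.0658%), 0.0517% in CNLX17 and 0.00992% in CNLX21. CNLX23 and CNLX17 stood at 539 and 537 CPM after TMM scaling, and at 642 and 517 CPM without TMM factors. These intervals cover counting error only, since reads copied by PCR from the same molecule were not told apart.

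*miR-144*, the partner of *miR-451* in the primary transcript, was the scarcest of the 3 and showed the same pair of high libraries. In Holstein it measured 8.39 CPM in CNLX1, 9.65 in CNLX3, 7.43 in CNLX5, 7.96 in CNLX7 and 7.13 in CNLX9 (8.11 ± 0.988 CPM, SD, n = 5). In Montbéliarde the lowest level was 3.48 CPM (CNLX19), the median 6.07 CPM and the highest 24.7 CPM (CNLX17), and CNLX23 had 15.1 CPM (mean 9.88 ± 8.46 CPM, SD, n = 6). CNLX17 and CNLX23 were again above every Holstein library, CNLX15 (7.21 CPM) was within the Holstein range, and the other 3 were below it. The highest level was 7.12-fold the lowest. Its counts ran from 29 in CNLX13 (95% Poisson interval 19.4 to 41.6) to 190 in CNLX23 (164 to 219). Counting error, between 0.10 and 0.27 on the log2 scale (SD), was thus no longer negligible but was smaller than the SD of 0.73 between all libraries. Within Holstein it was about as large (0.13 to 0.20) as the SD between libraries (0.15).

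*miR-486* was the most abundant of the 3 by far and varied least over all libraries together. In Holstein alone it varied most, with an SD on the log2 scale of 0.29, against 0.25 for *miR-451* and 0.15 for *miR-144*. Without CNLX17 and CNLX23 its SD within breeds was again the largest (0.34, against 0.21 for *miR-451* and 0.28 for *miR-144*). The *miR-486* level in Holstein was 2768 CPM in CNLX1, 3461 in CNLX3, 3866 in CNLX5, 2328 in CNLX7 and 2815 in CNLX9 (3047 ± 610 CPM, SD, n = 5). In Montbéliarde it ranged from 2418 CPM (CNLX21) over a median of 3021 CPM to 4907 CPM (CNLX17), with a mean of 3391 ± 1035 CPM (SD, n = 6). CNLX17 was the highest library here too, but CNLX13 followed at 4391 CPM and CNLX23, with 3330 CPM, lay inside the Holstein range. CNLX13 thus held the second highest *miR-486* level together with a low *miR-451* level of 124 CPM and a low *miR-144* level of 4.93 CPM. The highest level was 2.11-fold the lowest, and *miR-486* stood between place 20 and place 42 in its libraries.

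**Figure D1:**
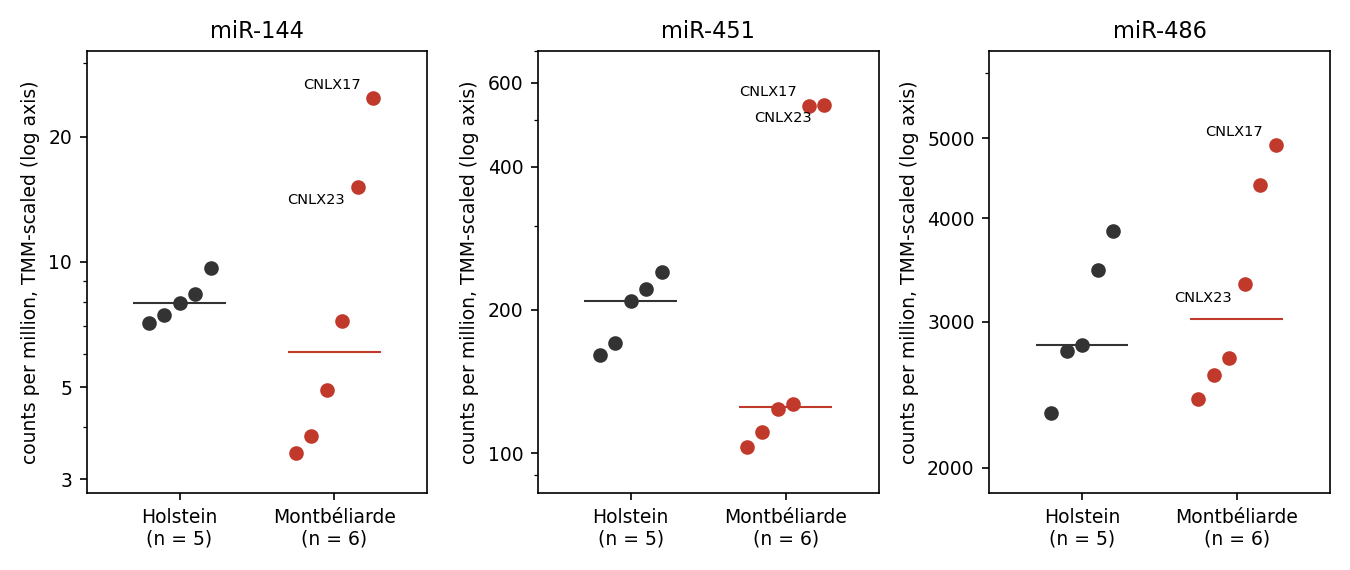
Level of *miR-144*, *miR-451* and *miR-486* in each of the 11 libraries (CPM with TMM scaling, log axis), with Holstein (n = 5) and Montbéliarde (n = 6) side by side, 1 point per library and a line at the median of each breed. CNLX17 and CNLX23 lie above all Holstein libraries for *miR-144* and *miR-451*, but CNLX23 lies among them for *miR-486*.

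None of the 3 miRNAs passed the breed test. The log2 fold change, Montbéliarde over Holstein, was 0.36 (SE 0.45) for *miR-451*, with an adjusted p of 0.780 from edgeR's quasi-likelihood test. For *miR-144* it was 0.28 (SE 0.45, adjusted p = 0.819 by the same edgeR test), and for *miR-486* it was 0.15 (SE 0.21, edgeR adjusted p = 0.789). In the order of p over the 550 tested miRNAs they held places 312, 360 and 328. So 0 of 3 were called at an adjusted p of at most 0.05, where 0.364% of all tested miRNAs (2 of 550) were called and 78 had an unadjusted p at or under 0.05. For each of the 3 the breeds overlapped, and over all tested miRNAs 2.36% (13 of 550) had no overlap between breeds. The median log2 fold change was 0.28 over the 3 and 0.03 over all 550.

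The sign of the *miR-144* and *miR-451* differences hung on single Montbéliarde libraries. Without CNLX17 the *miR-144* difference was -0.22, and without CNLX21 the *miR-451* difference was 0.60. Leaving out CNLX23 or CNLX17 took the *miR-451* difference to -0.0027 or 0.0026, that is, to nearly 0. The Montbéliarde mean of *miR-451* (257 CPM) was above the Holstein mean (200 CPM), whereas the Montbéliarde median (125 CPM) was below the Holstein median (209 CPM). The wide SE and the small groups do not show that the breeds had like levels.

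The miRNAs that passed the breed test were *miR-16a* and *miR-186*, both lower in Montbéliarde. The paper, using DESeq2, also reports both as lower in that breed, and the same pattern by RT-qPCR for *miR-186*. *miR-16a*, of the *miR-15/16* family that restrains the cell cycle and itself abundant in red cells, measured 1440 ± 178 CPM (SD) in Holstein and 835 ± 132 CPM in Montbéliarde, a log2 fold change of -0.79. *miR-186* ranged from 6630 to 7763 CPM in the 5 Holstein and from 3348 to 5478 CPM in the 6 Montbéliarde libraries, a log2 fold change of -0.77. CNLX17 and CNLX23 stood at 930 and 714 CPM of *miR-16a*, both within the range of the Montbéliarde libraries and below every Holstein library. Both calls were lost with RLE scaling and with any of 7 single libraries left out (CNLX1, CNLX3, CNLX5, CNLX7, CNLX15, CNLX19 or CNLX21). Without CNLX9 or without TMM factors *miR-186* alone was lost, and with log2 library size as a covariate *miR-16a* alone. With the mean log2 level of *miR-144*, *miR-451* and *miR-486* as a covariate the edgeR test called the same 2 miRNAs, with log2 fold changes of -0.79 and -0.77 and an adjusted p of 0.0447 for each.

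The spread between cows of a breed was larger for *miR-451* and *miR-144* than for most miRNAs. Among 215 miRNAs (those with a mean count of at least 100, and the 3), the SD of log2(CPM + 1) within breeds was 0.87 for *miR-451* (place 7 from the top), 0.77 for *miR-144* (place 11) and 0.37 for *miR-486* (place 96), with a median of 0.35. The wide spread was seen in Montbéliarde. There the SD was 1.15 for *miR-451* and 1.02 for *miR-144*, against a median of 0.43. In Holstein it was 0.25 and 0.15, against a median of 0.21, and *miR-144* was thus among the less variable miRNAs in that breed (place 160). *miR-486* had an SD of 0.42 in Montbéliarde and 0.29 in Holstein. The ratio of the Montbéliarde SD to the Holstein SD was 6.69 for *miR-144*, 4.62 for *miR-451* and 1.47 for *miR-486*, with a median of 1.85 over the 215. The spread rested on CNLX17 and CNLX23. With the other 4 Montbéliarde libraries alone, the SD was 0.14 for *miR-451*, below that of Holstein, 0.39 for *miR-144* and 0.39 for *miR-486*, and the ratios to Holstein became 0.557, 2.57 and 1.36 (median 1.90). The within-breed SD then stood at place 168 for *miR-451*, place 131 for *miR-144* and place 104 for *miR-486*. These ratios are descriptions of a few cows, and whether the spreads differed was not tested.

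**Figure D2:**
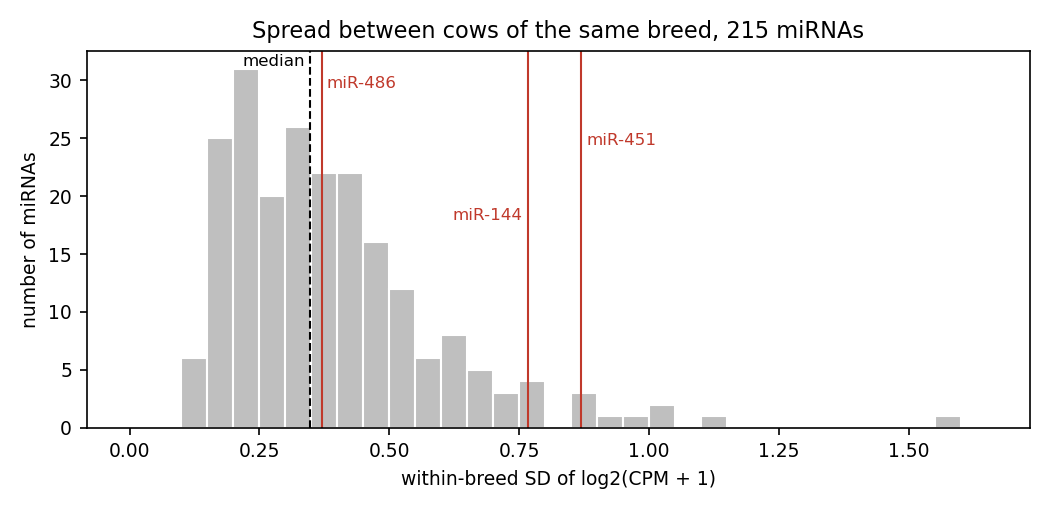
Histogram of the within-breed SD of log2(CPM + 1) over 215 miRNAs, with red lines at the 3 miRNAs and a dashed line at the median. *miR-144* (0.77) and *miR-451* (0.87) lie in the right tail, and *miR-486* (0.37) lies beside the median (0.35).

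*miR-144* and *miR-451* were correlated over the 11 libraries. Pearson's r of their log2(CPM + 1) levels was 0.90 and Spearman's rho 0.84 over the 11 libraries (permutation p = 0.0004, adjusted p = 0.00840 over the 21 relations computed). Centred on the breed means, r was again 0.90, and within the 6 Montbéliarde libraries it was 0.92. The 5 Holstein libraries were too few for a coefficient of their own, and their values did not run together. CNLX3 had the highest *miR-144* level (9.65 CPM) with a low *miR-451* level (170 CPM). CNLX5 had a low *miR-144* level (7.43 CPM) with a high *miR-451* level (221 CPM). The Holstein SD of *miR-144* (0.15 on the log2 scale) was, however, no larger than its counting error there (0.13 to 0.20). Its order among these libraries is thus not resolved. The relation of *miR-144* and *miR-451* rested in part on CNLX17 and CNLX23, also the 2 libraries farthest from the median. Over the other 9 libraries r was 0.70 (permutation p = 0.0409, adjusted p = 0.215). There the 4 Montbéliarde libraries lay at 103 to 127 CPM of *miR-451*, against 161 to 240 CPM in Holstein. For *miR-144* they lay at 3.48 to 7.21 CPM, against 7.13 to 9.65 CPM. The r of 0.70 was not centred on breed means, so it cannot be told apart from this offset between breeds. Leaving out 1 library at a time gave r between 0.84 and 0.93.

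*miR-486* followed the pair less closely, and its relations did not pass the test. Pearson's r was 0.48 with *miR-451* (rho 0.43, permutation test, adjusted p = 0.457) and 0.53 with *miR-144* (rho 0.41, permutation test, adjusted p = 0.404). Single libraries moved both values in opposite directions. Without CNLX13, the library high in *miR-486* alone, r rose to 0.70 with *miR-451* and 0.75 with *miR-144*. Without CNLX17 it was 0.20 and 0.19, and without CNLX17 and CNLX23 it was 0.11 and 0.10. Within the 6 Montbéliarde libraries r was 0.60 and 0.63.

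**Figure D3:**
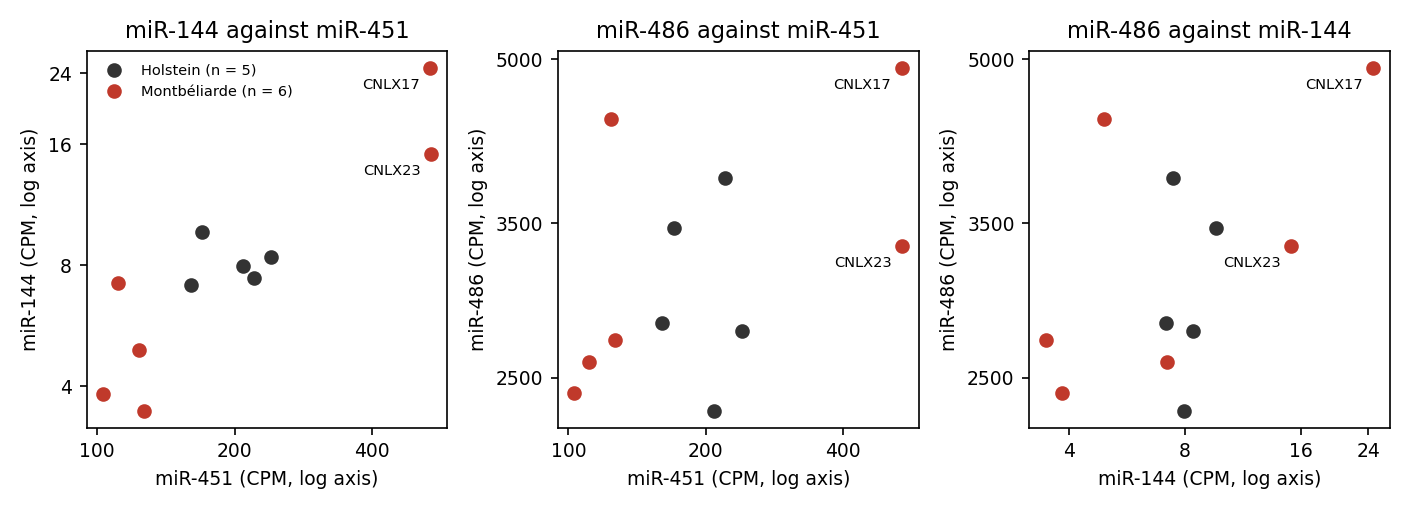
Level of each miRNA against another in the 11 libraries (CPM with TMM scaling, log axes), with breeds by colour and CNLX17 and CNLX23 named. *miR-144* and *miR-451* are correlated, with CNLX17 and CNLX23 at the top end (r = 0.90), whereas in both plots of *miR-486* a Montbéliarde library (CNLX13, 4391 CPM) lies high at the left.

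Ratios of counts within a library do not depend on its scaling. From 2.75 (CNLX19) to 6.50 (CNLX15) *miR-144* reads were counted per 100 *miR-451* reads, a range of 2.37-fold, narrower than the range of either miRNA. CNLX17 (4.61) lay inside this range and CNLX23 (2.81) near its low end, although both held much of either miRNA. The ratio of *miR-486* to *miR-451* reads was lowest in CNLX23 (6.18) and CNLX17 (9.14), between 11.2 and 20.4 in Holstein, and highest in CNLX13 (35.5). *miR-486* reads per *miR-144* read ran from 198 (CNLX17) and 220 (CNLX23) to 891 (CNLX13), with the Holstein libraries between 292 and 520. In the pair of high libraries, then, *miR-451* and *miR-144* were raised more than *miR-486*.

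None of the 3 ratios differed between breeds beyond the spread of the libraries. The log2 difference, Montbéliarde minus Holstein, was -0.07 for *miR-144* to *miR-451* (exact permutation p = 0.758), 0.16 for *miR-486* to *miR-451* (exact permutation p = 0.732) and 0.23 for *miR-486* to *miR-144* (exact permutation p = 0.597). The tests were two-sided over all 462 assignments of the breed labels, could reach a p of 0.00216 at the smallest, and had an adjusted p of 0.758 for each of the 3. Within Montbéliarde the SD of the log2 ratio was 0.47, 0.96 and 0.94, and within Holstein it was 0.31, 0.39 and 0.31.

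**Figure D4:**
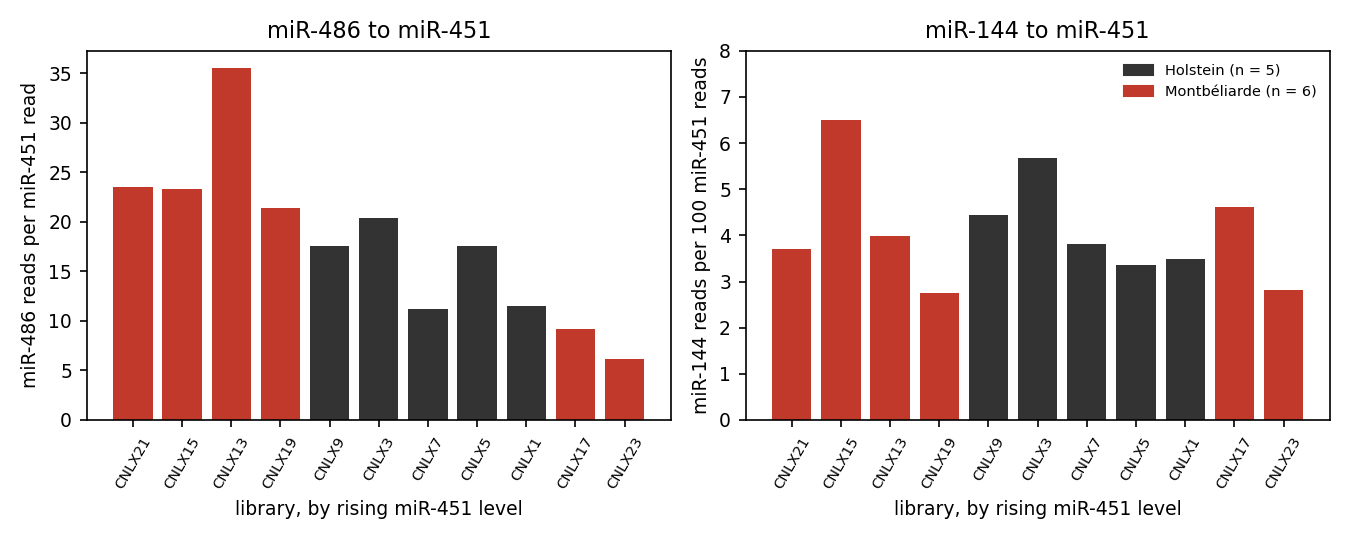
Bars give *miR-486* reads per *miR-451* read and *miR-144* reads per 100 *miR-451* reads in each library (linear axes from 0, raw counts), coloured by breed and ordered by rising *miR-451* level. CNLX23 and CNLX17 have the lowest ratios of *miR-486* to *miR-451* (6.18 and 9.14) and CNLX13 the highest (35.5), while *miR-144* reads per 100 *miR-451* reads span 2.75 to 6.50.

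For *miR-144* the miRNA of most like pattern was *miR-451*, and for *miR-451* it was *miR-144*, of 214 others each (Pearson's r of log2(CPM + 1), 11 libraries). The next for *miR-144* were *miR-345-5p* (r = 0.54), *miR-486* (0.53), *miR-3431* (0.49) and *miR-22-5p* (0.49). Those for *miR-451* were *miR-345-5p* (0.74), *miR-193a-3p* (0.65), *miR-6120-3p* (0.64) and *miR-3431* (0.59), with *miR-486* at place 19. The order changed without CNLX17 and CNLX23: *miR-451* was then at place 11 for *miR-144*, and *miR-144* at place 23 for *miR-451*. The r of *miR-3431* was then -0.28 with *miR-144* and 0.07 with *miR-451*. That of *miR-345-5p* was 0.46 and 0.71. The *miR-345-5p* level was 22.7 CPM in CNLX23, the highest of any library, but 10.0 CPM in CNLX17, near its median of 9.56 CPM.

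For *miR-486*, both *miR-144* and *miR-451* were near in pattern but not nearest. The list of *miR-486* was led by *miR-3431* (0.68), *miR-2285t* (0.57) and *miR-30a-5p* (0.55), a miRNA of many epithelia. Then came *miR-144* (0.53) and *miR-769* (0.49), and *miR-451* was at place 6 (0.48). Without CNLX17 and CNLX23 *miR-144* was at place 76 and *miR-451* at place 74. The r of *miR-3431* was then 0.44, and that of *miR-30a-5p*, then at place 1, was 0.66. Both *miR-3431* (37.9 CPM) and *miR-2285t* (274 CPM) had their highest level in CNLX17, as *miR-486* did. All these values describe at most 11 libraries that share their scaling, and were not tested.

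The place of other red cell miRNAs in CNLX23 depended on the scaling. A list of 11 such miRNAs, which many other cells also make (*miR-92a* and *miR-25*, of clusters that favour cell growth, and *miR-16a* were the most abundant), summed to 8501 CPM in CNLX17 and 8539 CPM in CNLX23, places 8 and 7 of the 11 libraries. Without TMM factors it summed to 8181 CPM in CNLX17, again place 8, but to 10185 CPM in CNLX23, place 2. For 8 of its 11 members CNLX23 was among the 5 highest libraries with TMM scaling, while *miR-16a* and *miR-16b* were at their lowest there. With TMM scaling the sum ranged from 8327 to 9119 CPM in Holstein and from 8501 to 10880.5 CPM in Montbéliarde, only 1.31-fold from lowest to highest. The median of the sum was 8648 CPM, beside a median of 4742 CPM for *miR-92a* alone, so much of the sum was this miRNA. Of the list's 11 members 1 fell in Montbéliarde (*miR-16a*), 0 rose and 10 did not pass the edgeR test, beside 0.364% of all tested miRNAs called, and the *miR-16a* call is the one lost under the settings named above. The paper, using DESeq2, also reports *miR-25* as higher in Montbéliarde. The list had a median log2 fold change of -0.23. With *miR-144* its sum had an r of -0.69 (permutation test, adjusted p = 0.230), and with *miR-451* an r of -0.51 (permutation test, adjusted p = 0.404), but without TMM factors these became -0.26 and 0.07. Centred on breed means they were -0.74 and -0.55, and as Spearman's rho -0.78 and -0.61. Without CNLX17 and CNLX23 they were -0.84 and -0.50. None of these passed the permutation test after adjustment.

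The summed white cell and platelet miRNAs lay below the median library in both CNLX17 and CNLX23, with or without TMM factors. The list of 6 (*miR-142-5p*, *miR-142-3p*, *miR-150*, *miR-155*, *miR-223* and *miR-146a*, markers of blood and tissue leukocytes) summed to 2244 CPM in CNLX17 and to 2043 CPM in CNLX23, the lowest of all libraries with TMM scaling. Without TMM factors CNLX17 was the lowest (2160 CPM) and CNLX23 was at place 7 (2436 CPM). With TMM scaling the list spanned 2131 to 3316 CPM in Holstein and 2043 to 4628 CPM in Montbéliarde. The most abundant of them, *miR-142-5p*, ranged from 1486 to 3237 CPM, and *miR-223*, of neutrophils and platelets, from 4.95 to 66.5 CPM, with 12.2 CPM in CNLX17 and 9.71 CPM in CNLX23 against a median of 8.12 CPM. The r of the list's sum with *miR-451* was -0.63 (permutation test, adjusted p = 0.261). The endothelial *miR-126-3p* and *miR-126-5p* summed to 27702 CPM in CNLX17 and to 24321 CPM in CNLX23, within a range of 24321 to 34172 CPM. CNLX23 was thus lowest with TMM scaling, but at place 6 (29010 CPM) without TMM factors.

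Markers of striated muscle, the other known source of *miR-486*, were scarce. Of the 6 listed, 5 were in the table and 4 were detected in every library, while *miR-208b*, of heart and slow muscle, had 8 counts in all and was at 0 in 6 libraries. Their sum ranged from 64.0 to 182 CPM in Holstein and from 52.6 to 154 CPM in Montbéliarde, most of it *miR-133a* (45.9 to 171 CPM). *miR-1*, the most abundant miRNA of heart muscle, ranged from 1.58 to 8.65 CPM. The sum was 154 CPM in CNLX17, place 2, but 52.6 CPM in CNLX23, the lowest (place 10 without TMM factors). Its r with *miR-486* was 0.02 (permutation test, adjusted p = 0.961).

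The epithelial list spanned 2.70-fold from its lowest to its highest library, and the stromal and smooth muscle list 2.46-fold. The epithelial list summed to 30044 CPM in CNLX17 and 29170 CPM in CNLX23, places 7 and 8, between 37969 and 46060 CPM in Holstein and between 17715 and 47890 CPM in Montbéliarde. Much of it was *miR-141*, with a median of 25910 CPM beside 37969 CPM for the list. The list's r with *miR-451* was 0.22 over all libraries (permutation test, adjusted p = 0.822). Without CNLX17 and CNLX23 this r was 0.73 (permutation test, adjusted p = 0.215), not centred on breed means. The stromal and smooth muscle list, nearly all of it *miR-143*, summed to 297177 CPM in CNLX17 and 195521 CPM in CNLX23, places 3 and 7, and ranged from 153730 to 226268 CPM in Holstein and from 195521 to 378064 CPM in Montbéliarde. Its r with *miR-451* was -0.34 over all libraries (permutation test, adjusted p = 0.658). Over the 9 libraries without CNLX17 and CNLX23 it was -0.89 (permutation test, adjusted p = 0.0189 over 21 relations). In these 9 the list sum was at least 227562 CPM in Montbéliarde and at most 226268 CPM in Holstein. Their *miR-451* level was lower in every Montbéliarde library than in any Holstein library. The permutation took no account of breed, so a relation between cows cannot be told apart from a breed offset here. No member of the white cell, endothelial, epithelial, muscle or stromal lists passed the breed test, beside 0.364% of all tested miRNAs.

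In all, 0 of the 18 relations between the 3 miRNAs and the 6 lists passed the permutation test after adjustment, and 2 had an unadjusted p at or under 0.05. Their r ran from -0.69 to 0.33, and 12 of the 18 were negative. The amount of blood in each biopsy was not recorded in the sources used here, and its part in the levels of *miR-144*, *miR-451* and *miR-486* was not tested.

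**Figure D5:**
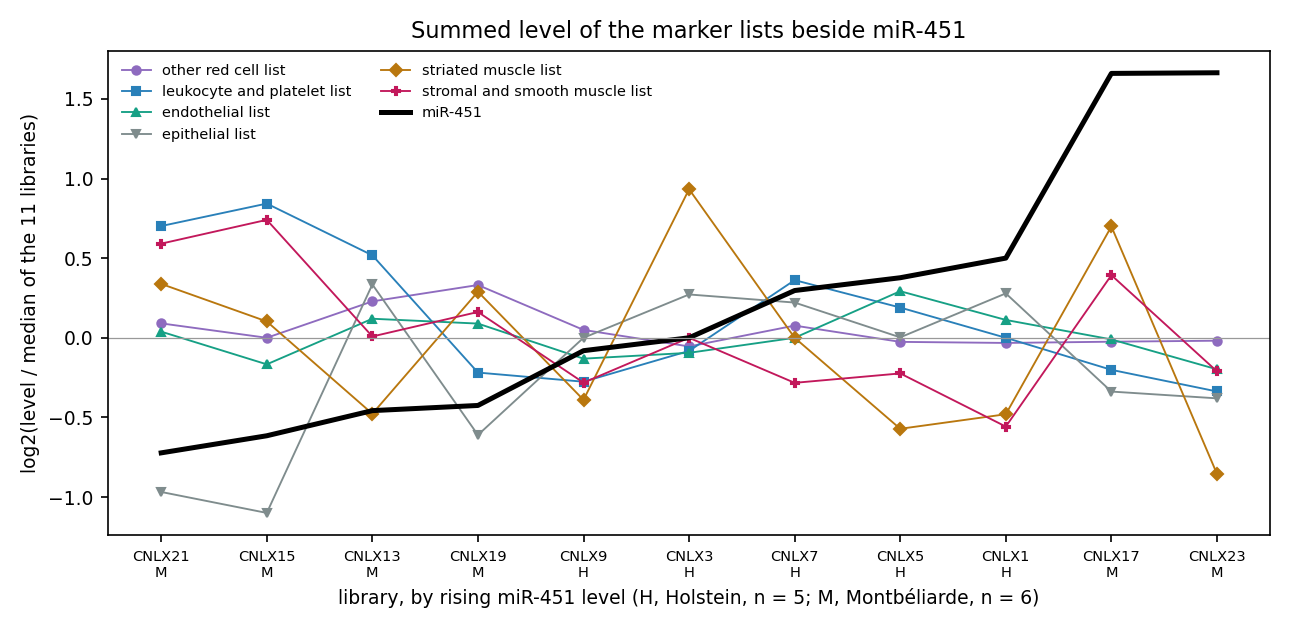
Summed level of 6 marker lists and the level of *miR-451* in each library, as log2 of the level over the median of the 11 libraries, with libraries ordered by rising *miR-451*. Levels are TMM-scaled. The black *miR-451* line steps up at CNLX17 and CNLX23, where the other red cell list stays near its median (without TMM factors it is at place 2 in CNLX23) and the white cell and platelet list lies below its median.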

How the data were processed

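TruSeq small RNA libraries were sequenced, 1 for each of 5 Holstein and 6 Montbéliarde cows. Per the paper's methods and the labels, base calls were made with bcl2fastq 2.17.1.14, adaptors were trimmed, reads of 15 to 40 nt were kept, and miRNAs were quantified with ncPRO-seq and miRDeep2 against the bovine genome and miRBase 22.1. The authors deposited the unnormalized counts of each mature miRNA, which were used here. How reads matching several miRNAs were counted is not given in the sources used here, and 0 other miRNAs kept a constant ratio (within 5%) to any of the 3. The 11 per-library columns of normalized counts (DESeq2 1.18.1) and the authors' breed means, fold changes and p-values were not used. The paper's own breed calls are named only for *miR-16a*, *miR-186* and *miR-25*.

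Breeds, taken from the labels, were compared with edgeR 4.0.16 (R 4.3.3): TMM, glmQLFit with robust fitting and glmQLFTest on miRNAs with at least 10 counts summed over libraries, p-values adjusted over all of them (Benjamini-Hochberg). The SE was derived from the fold change and its F statistic. Two-sided exact permutation tests were used for the ratios. Correlations used log2(CPM + 1) and two-sided permutation tests (100000 resamples), adjusted over 21 relations. Alternatives were DESeq2 1.42.0, limma 3.58.1, other scalings, filters and covariates, and each library left out in turn. The edgeR fit was tested on simulated counts with known fold changes, and the DESeq2 and limma fits were not.

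Between 6087865 and 16808976 reads were counted per library. At this depth counting error was small for *miR-451* and *miR-486* and larger for *miR-144*. Each library is a different cow, the breeds share no replicate numbers, and sequencing batches are not given in the sources used here. Named were the 3 miRNAs, the 5 most like each in pattern, members of the marker lists and any miRNA called between breeds. Those sharing seed bases with the 3, also in that rule, were not analysed here, as no sequences were at hand. The 3 miRNAs and the lists were chosen with earlier results of these data known, and the list relations given singly were chosen after their values were seen.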

Additional observations from a re-analysis of the deposited data

How the results depend on the processing

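With 11 libraries of 1 cow each, the spread between Montbéliarde cows limits every value. The breed difference of *miR-144* turned from 0.28 to -0.11 and that of *miR-451* from 0.36 to -0.034 with limma-voom. With each library left out in turn, they ranged from -0.22 to 0.53 and from -0.0027 to 0.60. The difference of *miR-486* kept its sign (0.02 to 0.31). The 3 stayed uncalled under every alternative run. The number of miRNAs called between breeds was 2, and 20 with DESeq2, 0 with RLE scaling, 1 without TMM factors, and 0 to 6 with each library left out. The ratio of *miR-144* to *miR-451* changed sign with medians (0.012) and with single libraries left out (-0.22 to 0.047), as did that of *miR-486* to *miR-451* (-0.055 to 0.45). The correlation of *miR-144* and *miR-451* fell to 0.70 without the 2 libraries farthest from the median, which are CNLX17 and CNLX23 (leaving out this pair, and giving list sums without TMM factors, was also chosen after the data were seen). List relations passing the test then numbered 1 in place of 0 (*miR-451* with the stromal and smooth muscle list, without account of breed). The relation of *miR-451* with the other red cell list turned to 0.067 without TMM factors. That of *miR-486* with the striated muscle list, near 0, became -0.12 without TMM factors, -0.10 as Spearman's rho, -0.23 without the 2 libraries farthest from the *miR-486* median, -0.28 without CNLX17 and CNLX23, and -0.33 to 0.16 with each library left out. The cause of these changes was not tested. No paired analysis was possible because the breeds share no replicate numbers.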

Other observations

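The miRNA with the most opposite pattern to *miR-451*, of 214, was *miR-411a*, a miRNA of the imprinted *DLK1-DIO3* region, which was looked up after its values were seen. Its level was lowest in CNLX17 (1569 CPM) and next lowest in CNLX23 (1670 CPM), against a median of 2068 CPM and a highest level of 3701 CPM. Over the 11 libraries Pearson's r with *miR-451* was -0.85 and Spearman's rho was -0.95. Pearson's r was -0.89 over the 9 libraries other than CNLX17 and CNLX23, and -0.80 without TMM factors. In these 9 libraries *miR-451* was lower in every Montbéliarde library than in any Holstein library. The log2 fold change of *miR-411a* over all libraries was 0.36, Montbéliarde over Holstein. The r of -0.89 was not centred on breed means, so it cannot be told apart from a breed offset. With *miR-144* Pearson's r was -0.69 over the 11 libraries. It was singled out as the extreme of 214 values, so these are descriptions with no test.

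No library of either breed was far enough from its group in *miR-144*, *miR-451* or *miR-486* to be marked by Dixon's test at 95%. That test looks at the gap between an extreme library and its nearest neighbour. For *miR-451* it could not mark CNLX17 or CNLX23, which lay side by side at 537 and 539 CPM, so it does not show that they were ordinary.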
